A study of Homo sapiens with 12 samples.

Results

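The 10 genes described here encode the elastic fibre and the enzymes that crosslink it: ELN, FBN1, FBN2, FBLN1, FBLN2, FBLN5, EMILIN1, LOX, LOXL1 and LOXL2. They were taken by gene symbol, and all 10 were found among the 55737 named genes of each table. An elastic fibre is a core of crosslinked elastin laid down on a scaffold of fibrillin microfibrils, with fibulins and emilin bringing the components together. Enzymes of the lysyl oxidase family then oxidise lysines so that elastin and collagen chains become covalently joined, which gives skin its recoil and its tensile strength. Dermal fibroblasts are a main source of these proteins.

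The cells were HCA2 (MJ90) human skin fibroblasts with a hairpin that doxycycline switches on. The 4 groups of 3 libraries each were shFbxo22 senescent, shFbxo22 young, shLuc senescent and shLuc young. The shFbxo22 hairpin is directed at FBXO22, whose F-box protein selects substrates for a ubiquitin ligase, and shLuc, directed at luciferase, is its control. Senescent cells had been given 10 Gy of ionizing radiation, young cells were of low passage, and the medium was DMEM with fetal bovine serum. The labels do not say whether libraries of a group are separate cultures, and the p-values cover only the spread between libraries, possibly a technical one. Whether a hairpin line is 1 clone is not given either.

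Values were read from 4 tables in which the authors compared 2 groups of 3 libraries. A table gives a base mean (mean normalized count over 6 libraries), a log2 fold change with its standard error (SE) and a Wald test. A gene is called here when its adjusted p is under 0.05. Values of single libraries were not analysed here, so groups are described by means reconstructed from the base mean and the fold change. Every group stands in 2 tables, and its 2 estimates differed by at most 3.07% for the 10 genes. Base means of a table added up to between 21875579 and 21895679 normalized counts, and the depth of each library is unknown. All 8 fibroblast markers examined reached a base mean of 200, and no keratinocyte, endothelial, melanocyte or leukocyte marker did. Fibroblast marker levels were not constant. In shLuc senescence PDGFRA, PDGFRB, DCN and LUM were called higher and VIM and THY1 lower. Among senescent cells, each of these was called the other way with shFbxo22 over shLuc. In such bulk RNA, fewer cells of a type and less RNA per cell cannot be told apart.

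The targeted gene went against its label in senescent cells. FBXO22 had 746 normalized counts in shFbxo22 senescent, 254 in shFbxo22 young, 371 in shLuc senescent and 438 in shLuc young libraries. The authors' deposited table of senescent hairpins puts it at 1.01 ± 0.12 (adjusted p = 7.91e-15), shFbxo22 over shLuc on the log2 scale with SE. In young cells the authors' deposited table puts it at -0.81 ± 0.15 (adjusted p = 1.07e-06). The files do not state a direction, and the table of senescent hairpins as deposited holds -1.01, which read without turning would put FBXO22 lower with shFbxo22. Leaving that table unturned would part the paired estimates of the group means by a mean absolute log2 difference of 0.25, against 0.0092 with it turned. This rests on each table holding the groups its name gives, and whether libraries or labels were exchanged was not tested. What follows on the libraries labelled shFbxo22 senescent is therefore about the label and not about a lower FBXO22 transcript. The direction of the fold changes was settled from the numbers, and the tables of shFbxo22 senescence and of senescent hairpins are given with their sign turned.

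Elastin was the member whose group means lay farthest apart. ELN, which encodes the elastic core protein, had 10198 normalized counts in shFbxo22 senescent, 4964 in shFbxo22 young, 2106 in shLuc senescent and 5283 in shLuc young libraries. The highest group was 4.84-fold above the lowest, and the young groups of either hairpin lay between both senescent ones. The young groups did not differ past the test.

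The fibrillins build the microfibril scaffold. FBN1, encoding the main fibrillin of adult tissue, had 29058 normalized counts in shFbxo22 senescent, 22676 in shFbxo22 young, 20811 in shLuc senescent and 17523 in shLuc young libraries. Its lowest group was shLuc young, and it was called in all 4 comparisons. FBN2, a fibrillin made mostly in development, had 33185 normalized counts in shFbxo22 senescent, 37395 in shFbxo22 young, 14429 in shLuc senescent and 17082 in shLuc young libraries. Its level followed the hairpin label, with both shFbxo22 groups above both shLuc groups. EMILIN1, a glycoprotein at the interface of elastin and microfibrils, had 2444 normalized counts in shFbxo22 senescent, 2682 in shFbxo22 young, 4918 in shLuc senescent and 4184 in shLuc young libraries. It had the opposite order to FBN2 between hairpins, and its levels within a hairpin did not differ past the test.

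The fibulins link elastin, microfibrils and cells. FBLN5, a fibulin required for elastic fibre assembly in mice, had 9489 normalized counts in shFbxo22 senescent, 9712 in shFbxo22 young, 6490 in shLuc senescent and 7212 in shLuc young libraries. As with FBN1 and FBN2, both shFbxo22 groups stood above both shLuc groups. FBLN2, a fibulin that binds fibrillin and basement membrane proteins, had 9050 normalized counts in shFbxo22 senescent, 8363 in shFbxo22 young, 20953 in shLuc senescent and 7925 in shLuc young libraries. The shLuc senescent group stood alone at the top, and of the other 3 groups no neighbours differed past the test. FBLN1, a fibulin found in elastic fibres and basement membranes, had 7455 normalized counts in shFbxo22 senescent, 7926 in shFbxo22 young, 8568 in shLuc senescent and 4724 in shLuc young libraries. Here the shLuc young group stood alone at the bottom.

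Of the crosslinking enzymes, LOX oxidises lysines of elastin and collagen. It had 17021 normalized counts in shFbxo22 senescent, 14858 in shFbxo22 young, 8058 in shLuc senescent and 14260 in shLuc young libraries. LOXL2, a lysyl oxidase-like enzyme with scavenger receptor domains, had 18266 normalized counts in shFbxo22 senescent, 19667 in shFbxo22 young, 8275 in shLuc senescent and 21471 in shLuc young libraries. For LOX and LOXL2 alike, shLuc senescent was the single low group, and the other 3 groups held no neighbours that differed past the test. LOXL1, the family member needed to renew elastin in adult mice, had 1811 normalized counts in shFbxo22 senescent, 1747 in shFbxo22 young, 1764 in shLuc senescent and 2434 in shLuc young libraries. Its 3 lower groups lay close together under shLuc young.

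**Figure D1:**
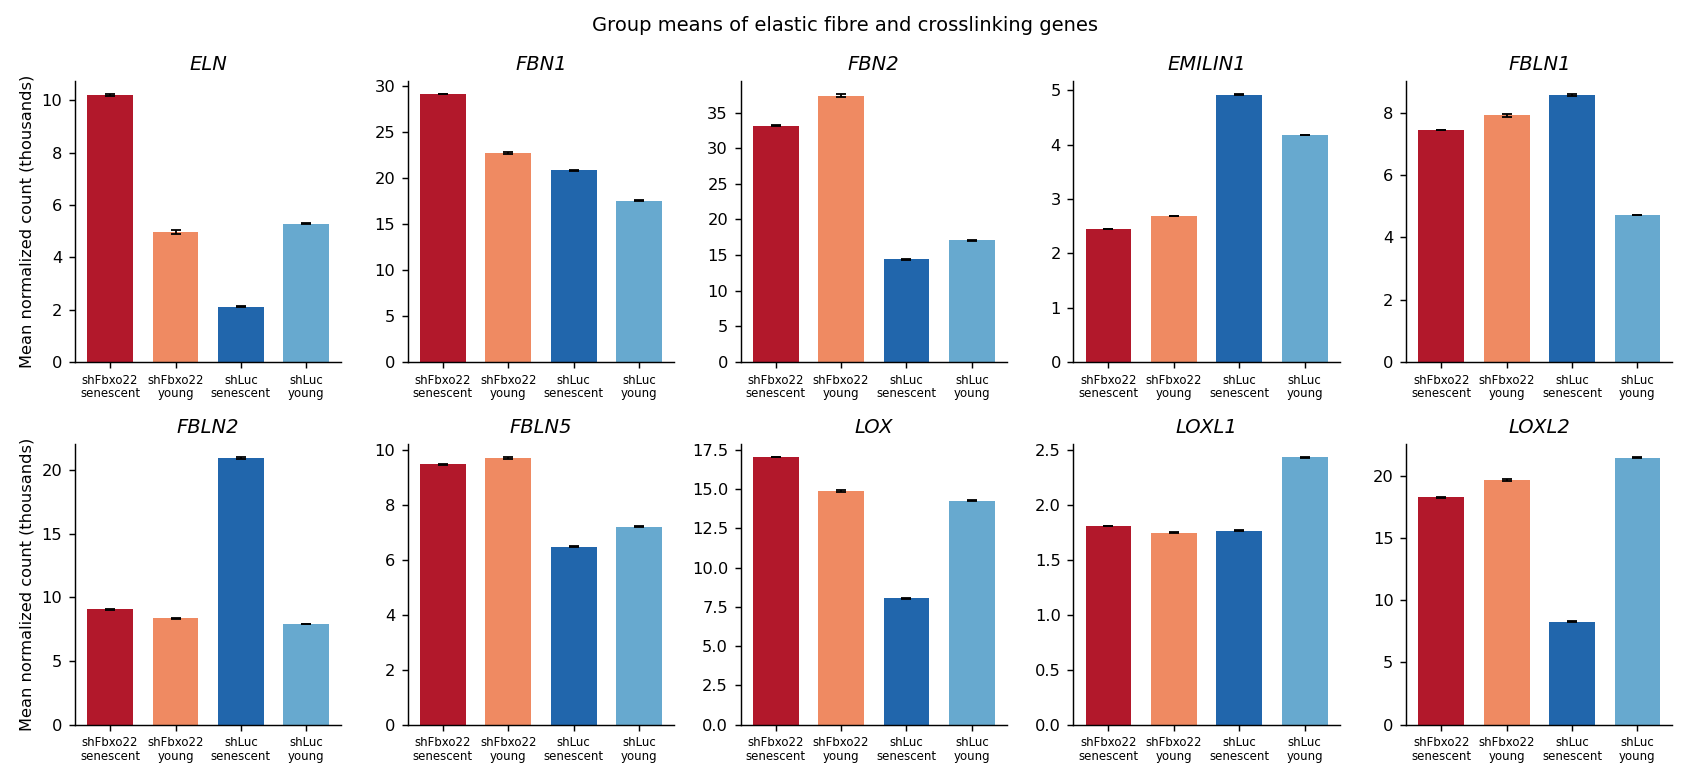
Mean normalized count (in units of 1000, linear axes from 0) of each of the 10 genes in the 4 groups of 3 libraries, reconstructed from the authors' tables; error bars span the 2 estimates of a group and are not a replicate error. ELN had 10198 in shFbxo22 senescent and 2106 in shLuc senescent libraries, and shLuc senescent was the lowest group for ELN, FBN2, FBLN5, LOX and LOXL2.

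Promoters of 3 members are printed as examples of genes that separated in senescent cells: LOX and FBN2 were higher and FBLN2 was lower in the libraries labelled shFbxo22. ELN, LOXL2, EMILIN1, FBLN5 and FBN1 also separated there and are not printed. Promoters from RefSeq's table for build GRCh38.p14 remained for 7 of the 10 members after windows on a single chromosome were left out. Whether a member without one had a window there is not shown. Each runs from 250 bases before to 50 bases after a start, and the first start listed is shown. The submitters' notes name the builds hg19 and GRCh37, so these positions are those of the reference and not of the authors' files. The windows are chr5:122078210-122078509 (minus strand) for LOX, chr5:128538196-128538495 (minus strand) for FBN2 and chr3:13548875-13549174 (plus strand) for FBLN2. Capitals mark matches, on either strand, to any of 5 motifs spelled out after the sequences.
LOX: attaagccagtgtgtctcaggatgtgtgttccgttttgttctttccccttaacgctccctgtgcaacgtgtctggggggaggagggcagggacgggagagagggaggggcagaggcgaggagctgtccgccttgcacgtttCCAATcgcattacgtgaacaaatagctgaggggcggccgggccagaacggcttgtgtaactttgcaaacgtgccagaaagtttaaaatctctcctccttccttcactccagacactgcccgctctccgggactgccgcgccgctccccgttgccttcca
FBN2: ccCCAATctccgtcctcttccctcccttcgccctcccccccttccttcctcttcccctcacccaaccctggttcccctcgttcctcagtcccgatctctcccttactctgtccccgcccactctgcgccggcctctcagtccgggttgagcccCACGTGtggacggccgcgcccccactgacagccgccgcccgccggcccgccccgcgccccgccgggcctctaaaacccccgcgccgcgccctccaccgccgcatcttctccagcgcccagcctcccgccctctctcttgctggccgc
FBLN2: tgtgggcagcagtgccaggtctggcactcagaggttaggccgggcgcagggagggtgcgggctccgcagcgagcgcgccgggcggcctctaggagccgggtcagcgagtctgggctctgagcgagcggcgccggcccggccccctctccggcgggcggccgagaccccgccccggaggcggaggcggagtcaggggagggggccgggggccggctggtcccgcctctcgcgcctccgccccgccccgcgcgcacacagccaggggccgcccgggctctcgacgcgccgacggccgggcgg
The CCAAT box, searched as CCAAT, was found once in the LOX window, at position -109 from the start, and once in the FBN2 window, at -248. It stands in 34.6% of all 35116 promoters of the table. The E-box, searched as CACGTG, was found in the FBN2 window at -97 and stands in 7.26% of promoters. No match was found in the 3 printed windows to the TATA box, searched as TATAAA and present in 11.5% of promoters. Nor was there a match to the TEAD motif, searched as GGAATG and present in 14.0%. The AP-1 motif, with any base in the middle (TGANTCA), stands in 7.71% and had no match either. None of the motifs overlap in these windows, and the FBLN2 window held no match, which says only that these letters are not in it. The GC content was 58.0% for LOX, 72.7% for FBN2 and 81.0% for FBLN2, and the median over all promoters was 58.7%. Among windows not printed, that of FBN1 held a TEAD match at -58. The later listed start of FBLN5 held a TATA box at -33, and both FBLN5 windows held a CCAAT box, at -225 and -75.

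With shLuc, elastin and all 3 lysyl oxidases among the 10 genes had lower transcript levels in senescent than in young cells, and a pair of fibulins had higher ones. The authors' deposited table gives ELN at -1.34 ± 0.11 (adjusted p = 1.6e-30) on the log2 scale with SE, a 2.53-fold difference. LOXL2 stood at -1.38 ± 0.09 (adjusted p = 2.5e-55), LOX at -0.83 ± 0.10 (adjusted p = 2.33e-16) and LOXL1 at -0.47 ± 0.10 (adjusted p = 1.78e-05) in that authors' deposited table. FBLN2 rose, at 1.40 ± 0.10 (adjusted p = 1.07e-41), as did FBLN1, at 0.86 ± 0.09 (adjusted p = 1.83e-22), by the authors' deposited table. The fibrillins moved by small amounts in opposite directions, FBN1 at 0.25 ± 0.08 (adjusted p = 0.00799) and FBN2 at -0.25 ± 0.09 (adjusted p = 0.0161) by the authors' deposited table. Neither EMILIN1, at 0.23 ± 0.10 (adjusted p = 0.0629), nor FBLN5, at -0.15 ± 0.09 (adjusted p = 0.138), passed by the authors' deposited table.

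In all, 3 members rose, 5 fell and 2 did not pass in shLuc senescence, so 8 of 10 were called. Of all 21889 genes tested 42.6% were called, 21.2% higher and 21.3% lower. The members are abundant transcripts, and their lowest base mean in any table was 1782. Of the 4180 tested genes whose base mean was 1000 or more, a limit chosen after the data were seen, 69.3% were called, 34.8% higher and 34.5% lower. The count of 8 is near that of other abundant genes. The members' median log2 fold change was -0.20, and that of all genes tested was -0.0031.

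**Figure D2:**
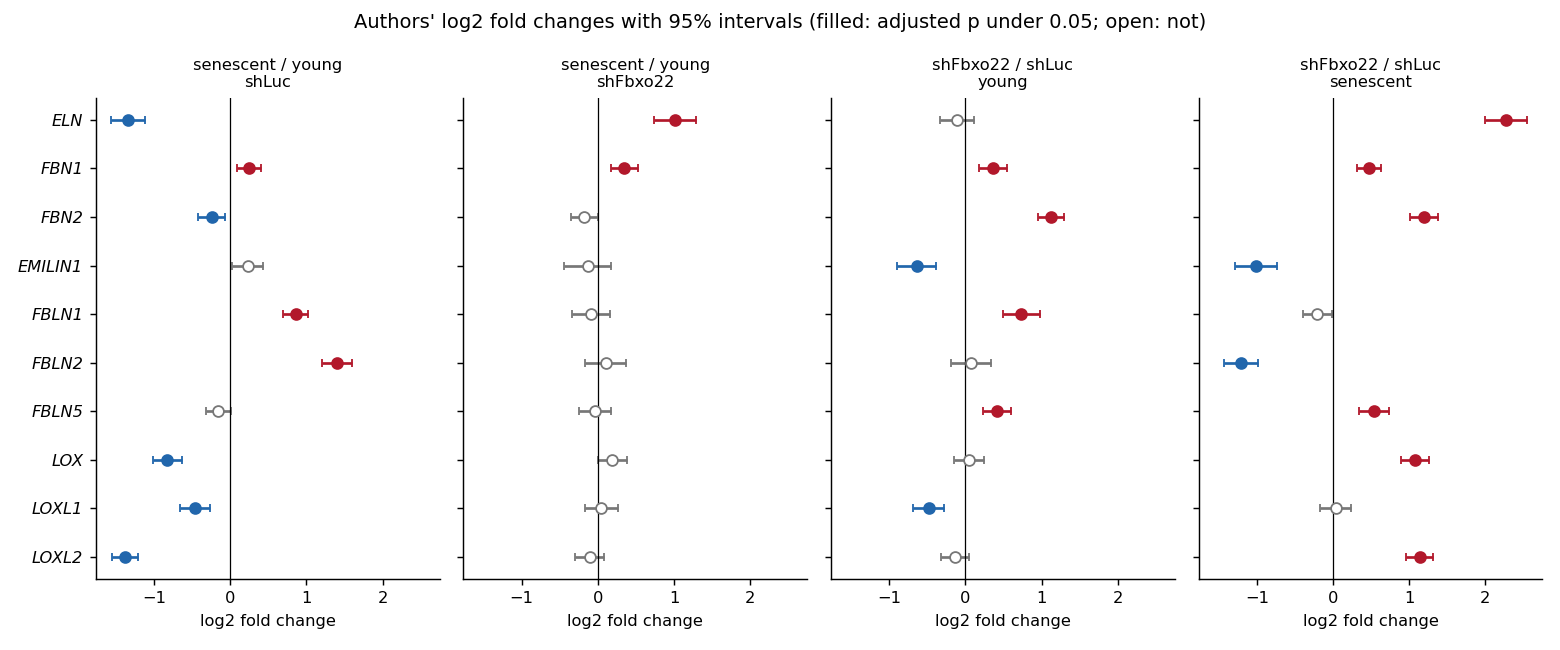
Log2 fold change (x axis) of each of the 10 genes in the 4 comparisons of the authors' deposited tables, with 95% intervals from the authors' standard errors; filled points passed adjusted p under 0.05 (red higher, blue lower) and open points did not. In senescent over young shFbxo22 libraries ELN at 1.01 and FBN1 at 0.35 passed and the other 8 genes did not.

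In the libraries labelled shFbxo22, 2 of the 10 genes were called between senescent and young cells, and both rose. The authors' deposited table gives ELN at 1.01 ± 0.14 (adjusted p = 1.26e-11), a 2.02-fold difference, and FBN1 at 0.35 ± 0.09 (adjusted p = 0.0015). A larger absolute fold change than that of ELN was seen in 3.80% of the 18758 genes tested there. This share counts genes with few reads, whose fold changes are understated. The other 8 members lay between FBN2, at -0.18 ± 0.09 (adjusted p = 0.196), and LOX, at 0.19 ± 0.10 (adjusted p = 0.184), by the authors' deposited table. For LOXL2, at -0.11 ± 0.10 in the authors' deposited table, the 95% interval of the log2 fold change was -0.30 to 0.079, which leaves out a fall as large as with shLuc. Of all genes tested 17.7% were called, 8.16% higher and 9.57% lower. Of the 4139 whose base mean was 1000 or more, 27.9% were called, 12.9% higher and 15.0% lower. The members' median log2 fold change was 0.0048, and that of all genes tested was 0.0014.

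Whether the response to senescence differed between hairpins was tested gene by gene, as the shFbxo22 minus the shLuc log2 fold change of the authors' tables with a normal z test. ELN had the widest difference of the 10, at 2.35 ± 0.18 (adjusted p = 3.75e-37), and its responses pointed in opposite directions. LOXL2 differed by 1.27 ± 0.13 (adjusted p = 3.2e-21), LOX by 1.02 ± 0.14 (adjusted p = 1.83e-12) and LOXL1 by 0.51 ± 0.15 (adjusted p = 0.00222). These 3 lysyl oxidases were lower in senescent than in young shLuc libraries, and in shFbxo22 libraries no such fall was called. LOX and LOXL2 separated between senescent hairpins and not between young ones. LOXL1 did the reverse, being lower in young shFbxo22 than in young shLuc libraries and not called between senescent hairpins. FBLN2 at -1.30 ± 0.17 (adjusted p = 6.26e-13) and FBLN1 at -0.95 ± 0.15 (adjusted p = 7.28e-09) differed the other way. FBLN2 was called between senescent hairpins and not between young ones, and FBLN1 between young hairpins and not between senescent ones. FBN1 at 0.10 ± 0.12 (adjusted p = 0.557), FBN2 at 0.069 ± 0.13 (adjusted p = 0.723), FBLN5 at 0.12 ± 0.14 (adjusted p = 0.551) and EMILIN1 at -0.37 ± 0.19 (adjusted p = 0.114) did not pass. The 95% interval of the difference was -0.18 to 0.32 for FBN2 and -0.73 to 0.00010 for EMILIN1.

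By this test 6 of 10 members were called, 4 higher and 2 lower, against 37.0% of all 18598 genes, 18.8% higher and 18.1% lower. Of the 3720 genes whose base mean was 1000 or more 55.3% were called, a share near that of the members. Among single members ELN lay farthest out, and 2.69% of all tested genes had a larger absolute difference. That share too counts genes with few reads, whose fold changes are understated. The same difference taken from both hairpin tables, which hold the same 12 libraries compared another way, was 2.38 for ELN and departed from the first estimate by at most 0.033 for any member. The members' median difference was 0.11, and that of all genes tested was 0.035. The shLuc senescent libraries enter the fall in shLuc senescence, the senescent hairpin comparison and the difference of responses, so these are not separate observations.

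**Figure D3:**
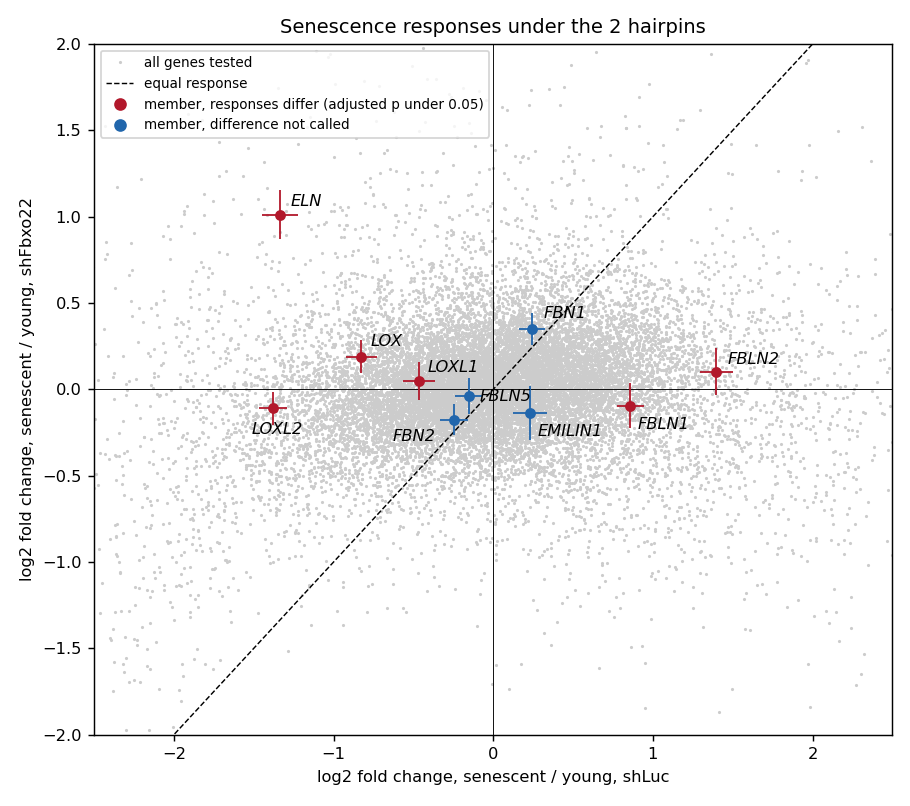
Log2 fold change of senescent over young libraries with shFbxo22 (y axis) against shLuc (x axis); grey points are the 18598 genes tested, coloured points the 10 genes with SE bars, red where the responses differed at adjusted p under 0.05, and the dashed line marks equal responses. ELN sits in the upper left quadrant at -1.34 and 1.01, and LOX, LOXL1 and LOXL2 lie left of the dashed line near a shFbxo22 response of 0; 493 genes lie beyond the axes.

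In young cells, fibrillins and fibulins made up the higher calls with shFbxo22. The authors' deposited table gives FBN2 at 1.12 ± 0.09 (adjusted p = 1.97e-35), a 2.17-fold difference. FBLN1 was higher, at 0.74 ± 0.12 (adjusted p = 1.76e-08), as were FBLN5, at 0.42 ± 0.09 (adjusted p = 5.12e-05), and FBN1, at 0.36 ± 0.09 (adjusted p = 0.000407), by the authors' deposited table. EMILIN1, at -0.64 ± 0.13 (adjusted p = 8.11e-06), and LOXL1, at -0.48 ± 0.10 (adjusted p = 1.69e-05), were lower by the authors' deposited table. The calls left out ELN at -0.11 ± 0.12, LOXL2 at -0.13 ± 0.09, FBLN2 at 0.070 ± 0.13 and LOX at 0.049 ± 0.10, with adjusted p between 0.275 and 0.752 in the authors' deposited table. The 95% interval for ELN was -0.34 to 0.11 on the log2 scale. With 4 members higher and 2 lower, 6 of 10 were called, against 35.9% of 20082 genes tested, 18.7% higher and 17.3% lower. Of the 4161 whose base mean was 1000 or more 52.9% were called, 27.2% higher and 25.7% lower. The members' median log2 fold change was 0.060, and that of all genes tested was -0.012.

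Among senescent cells, more transcript was found in the libraries labelled shFbxo22 than in the shLuc libraries for elastin, both fibrillins, FBLN5, LOX and LOXL2. The authors' deposited table gives ELN at 2.27 ± 0.14 (adjusted p = 3.11e-56), a 4.81-fold difference. FBN2 stood at 1.19 ± 0.09 (adjusted p = 2.52e-37), LOXL2 at 1.14 ± 0.09 (adjusted p = 1.1e-36) and LOX at 1.07 ± 0.09 (adjusted p = 1.14e-28) by the authors' deposited table. FBLN5, at 0.54 ± 0.10 (adjusted p = 4.25e-07), and FBN1, at 0.48 ± 0.08 (adjusted p = 1.94e-08), were also higher by the authors' deposited table. Lower were FBLN2, at -1.21 ± 0.11 (adjusted p = 4.99e-25), and EMILIN1, at -1.01 ± 0.14 (adjusted p = 8.3e-12), by the authors' deposited table. Neither FBLN1, at -0.21 ± 0.10 (adjusted p = 0.0844), nor LOXL1, at 0.033 ± 0.11 (adjusted p = 0.854), passed by the authors' deposited table. In all, 8 of 10 members were called, 6 higher and 2 lower. Of all 22788 genes tested 40.1% were called, 20.2% higher and 19.9% lower. Of the 4199 whose base mean was 1000 or more 63.7% were called, 31.5% higher and 32.3% lower. The members' median log2 fold change was 0.51, and that of all genes tested was -0.0089.

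Smooth muscle markers, which include contractile genes, went in different directions. The 5 markers MYH11, DES, SMTN, CNN1 and ACTA2 summed to 5184 normalized counts in shFbxo22 senescent, 6254 in shFbxo22 young, 1869 in shLuc senescent and 6833 in shLuc young libraries. None of the 5 was at 0 in all tables, and all but MYH11 reached a base mean of 200 in a table. In shLuc senescence, where ELN fell, ACTA2 at -2.43 ± 0.11, calponin CNN1 at -2.90 ± 0.12 and smoothelin SMTN at -2.32 ± 0.10 fell by the authors' deposited table, while desmin DES rose, at 0.33 ± 0.11 (adjusted p = 0.00912). In the libraries labelled shFbxo22, where ELN rose with senescence, ACTA2 at -0.38 ± 0.10 and CNN1 at -0.89 ± 0.13 fell by the authors' deposited table, and SMTN at 0.19 ± 0.13 and DES at -0.60 ± 0.26 did not pass. Between young hairpins, where ELN did not pass, the authors' deposited table has ACTA2 higher with shFbxo22, at 1.22 ± 0.09, and DES at -3.34 ± 0.17, SMTN at -1.04 ± 0.12 and CNN1 at -0.97 ± 0.12 lower. Between senescent hairpins, where ELN was higher, the authors' deposited table has ACTA2 at 3.28 ± 0.11, SMTN at 1.47 ± 0.12 and CNN1 at 0.998 ± 0.15 higher and DES lower, at -4.41 ± 0.19. MYH11 passed in none of the 4 comparisons. The part of these genes in the elastin result was not tested.

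A list of other structural genes of the elastic fibre held 14 tested genes of 15, among them microfibril-associated glycoproteins, latent TGF-beta binding proteins and further fibulins. Counts of the lists that follow stand beside the shares of all tested genes called, 42.6% in shLuc senescence, 17.7% in shFbxo22 senescence, 35.9% between young hairpins, 40.1% between senescent hairpins and 37.0% for the difference of responses. In shLuc senescence 10 rose, with MFAP4 at 2.12 ± 0.11, HMCN1 at 1.67 ± 0.17 and LTBP4 at 1.23 ± 0.12 in the authors' deposited table, and MFAP5 and VCAN fell. In the libraries labelled shFbxo22 senescence gave 3 higher (HMCN1, LTBP2 and VCAN) and 5 lower (MFAP2, MFAP4, EFEMP2, EMILIN2 and LTBP4). There the authors' deposited table puts the proteoglycan VCAN at 2.03 ± 0.13, LTBP2 at 0.72 ± 0.11 and LTBP4 at -0.70 ± 0.16. The 14 genes had a median log2 fold change of 0.71 in shLuc and of -0.076 in shFbxo22 senescence, beside -0.0031 and 0.0014 for all genes.

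Between hairpins, 7 genes of that list were higher in young shFbxo22 cells and FBLN7, LTBP2, VCAN and BGN were lower. The authors' deposited table has MFAP5 at 2.73 ± 0.16, EFEMP1 at 1.04 ± 0.10 and LTBP1 at 0.86 ± 0.09. Among senescent cells, those labelled shFbxo22 had 2 of the list higher and 9 lower. The authors' deposited table puts MFAP5, a microfibril-associated glycoprotein, at 4.43 ± 0.19 and VCAN at 2.36 ± 0.12, while MFAP4, which binds elastin and fibrillin, is at -2.23 ± 0.11. The response to senescence differed in 10 of the 14, higher for MFAP5 and VCAN and lower for 8. VCAN differed by 2.62 ± 0.17, MFAP4 by -2.81 ± 0.16 and LTBP4 by -1.93 ± 0.20 (SE).

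Of 11 further crosslinking genes tested, 6 rose in shLuc senescence and LOXL3, TLL1 and PLOD2 fell. TLL1 had few reads, with a base mean of 4.49 there and of 3.47 between senescent hairpins. The authors' deposited table has PCOLCE, an enhancer of procollagen processing, at 0.86 ± 0.08, transglutaminase TGM2 at 0.64 ± 0.09 and lysyl hydroxylase PLOD2 at -0.92 ± 0.12. In the libraries labelled shFbxo22 the copper transporter ATP7A, at 0.54 ± 0.13, and PLOD2, at 0.39 ± 0.12, rose with senescence by the authors' deposited table, and none fell. With shFbxo22 in young cells, LOXL4, BMP1, POSTN and TGM2 were higher and LOXL3, PLOD1 and PLOD2 lower. The authors' deposited table of young hairpins puts the lysyl oxidase LOXL4 at 2.21 ± 0.10, TGM2 at 1.66 ± 0.09 and the matricellular protein POSTN at 0.92 ± 0.10. Among senescent cells 6 were higher and LOXL3 and PCOLCE lower, with LOXL4 at 1.57 ± 0.11, PLOD2 at 1.04 ± 0.13 and PCOLCE at -1.39 ± 0.10 in the authors' deposited table. The responses differed for 4 of the 11, PLOD2 higher at 1.31 ± 0.17 and LOXL4, PCOLCE and TGM2 lower. The list's median log2 fold change was 0.39 in shLuc senescence, -0.057 in shFbxo22 senescence, 0.064 between young and 0.33 between senescent hairpins.

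Elastin-degrading proteases and the subunits of the elastin receptor were measured beside their substrate. In shLuc senescence 8 of 11 tested genes rose and the elastase MMP12 fell, where 42.6% of all tested genes and 69.3% of abundant ones (a base mean of 1000 or more) were called in either direction. MMP12 had few reads, with a base mean of 12.1 in shLuc senescence and of 14.5 between senescent hairpins. The authors' deposited table has cathepsin K (CTSK) at 3.58 ± 0.09, cathepsin S (CTSS) at 2.17 ± 0.18 and cathepsin L (CTSL) at 1.64 ± 0.10. In the libraries labelled shFbxo22 none of 10 rose with senescence, while CTSL, at -0.93 ± 0.11, and the receptor subunit CTSA, at -0.44 ± 0.10, fell by the authors' deposited table. In young cells 8 of 10 were higher with shFbxo22 and none lower, with CTSK at 1.75 ± 0.11, CTSL at 0.97 ± 0.11 and CTSA at 0.81 ± 0.09 in the authors' deposited table. Among senescent cells 8 of 12 were lower with the shFbxo22 label and MMP12 was higher. There the authors' deposited table has CTSK at -2.07 ± 0.09, CTSL at -1.62 ± 0.11 and CTSA at -0.94 ± 0.09. The responses differed in 9 of 10, MMP12 higher and 8 lower, where 37.0% of all tested genes and 55.3% of abundant ones were called. CTSK differed by -3.83 ± 0.14 (SE). The list's median log2 fold change was 1.27 in shLuc senescence, 0.017 in shFbxo22 senescence, 0.40 between young and -0.66 between senescent hairpins.

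Of 7 protease inhibitors, TIMP1, TIMP2, CST3 and A2M rose and TIMP3 fell in shLuc senescence. In shFbxo22 senescence TIMP3 rose and A2M fell among 6 tested. With shFbxo22, TIMP1, TIMP2, TIMP4, CST3 and A2M were higher and TIMP3 lower in young cells, and in senescent cells TIMP3 and TIMP4 were higher and TIMP1, TIMP2 and A2M lower. TIMP3, a matrix-bound metalloproteinase inhibitor, is at 1.26 ± 0.09 in shFbxo22 senescence and at 1.31 ± 0.08 between senescent hairpins in the authors' deposited tables. A2M, a broad protease inhibitor, is at 3.39 ± 0.16 in shLuc senescence and at -2.71 ± 0.15 between senescent hairpins in the authors' deposited tables.

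Of 7 fibril collagen genes, whose products LOX also crosslinks, COL5A3 rose and COL3A1, COL5A2 and COL11A1 fell in shLuc senescence. The authors' deposited table has COL11A1 at -1.55 ± 0.10, COL5A2 at -0.91 ± 0.09 and COL5A3 at 0.72 ± 0.13. In shFbxo22 senescence COL3A1, COL5A3 and COL11A1 fell and none rose, with COL5A3 at -1.29 ± 0.13 and COL3A1 at -0.51 ± 0.11 in the authors' deposited table. With shFbxo22, COL5A3 was higher and COL11A1 lower in young cells, and in senescent cells COL5A2 and COL11A1 were higher and COL5A3 lower.

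Of 4 tested ADAMTS family genes tied to microfibrils, ADAMTS10, ADAMTSL4 and THSD4 rose in shLuc senescence, and ADAMTSL4 and THSD4 fell in shFbxo22 senescence. ADAMTSL4, which binds fibrillin, is at 1.10 ± 0.11 in shLuc and at -0.37 ± 0.11 in shFbxo22 senescence in the authors' deposited tables. With shFbxo22, ADAMTS6, ADAMTSL4 and THSD4 were higher in young cells, and in senescent cells ADAMTS6 and THSD4 were higher and ADAMTS10 and ADAMTSL4 lower. Of 9 genes for TGF-beta ligands and integrins that bind microfibrils, TGFB1, ITGAV, ITGB3 and ITGB5 rose and TGFB2, ITGB1 and ITGA5 fell in shLuc senescence. TGFB1, at 0.58 ± 0.13 in the authors' deposited table, was the single call in shFbxo22 senescence. With shFbxo22, TGFB3 and ITGB3 were higher and TGFB1 and ITGA5 lower in young cells, and TGFB2, ITGB1 and ITGA5 were higher and ITGAV and ITGB5 lower in senescent cells.

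**Figure D4:**
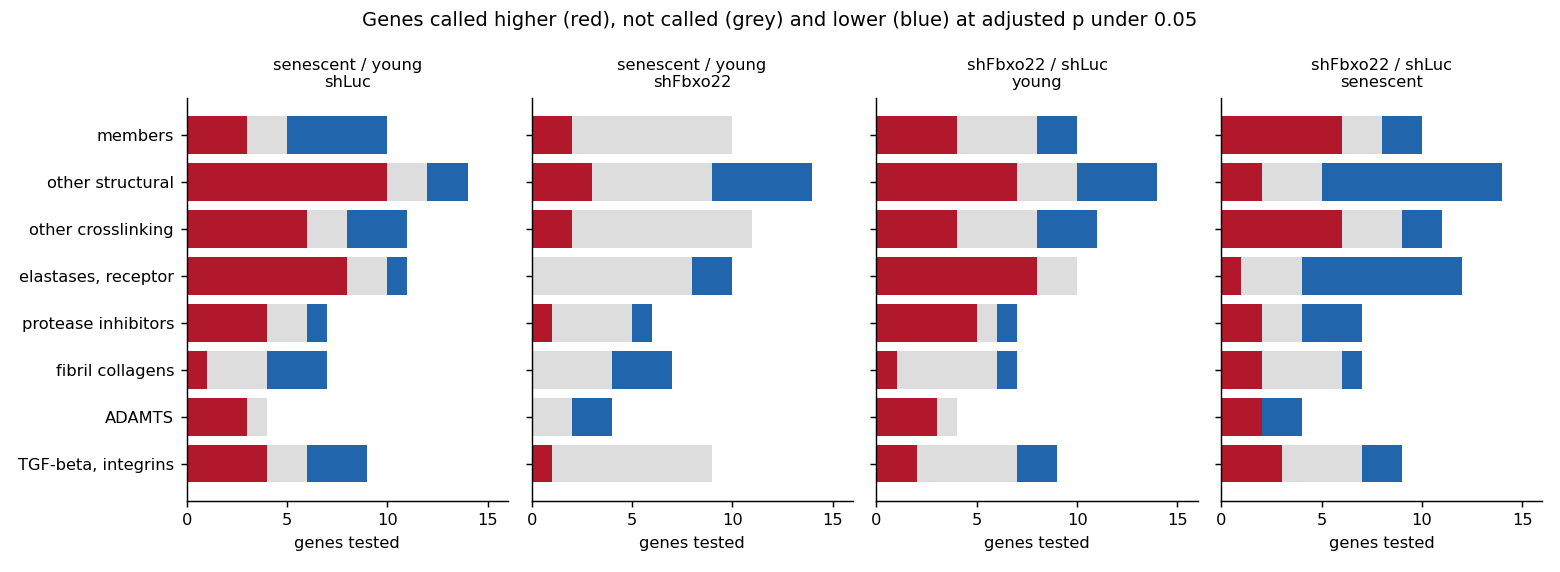
Number of tested genes (x axis) called higher (red), not called (grey) and called lower (blue) at adjusted p under 0.05 in each of the authors' 4 comparisons, for the 10 genes (members) and 7 other lists of the pathway. Among elastases and receptor subunits 8 of 11 rose in shLuc senescence and none of 10 in shFbxo22 senescence.

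Genes with the pattern most like that of a member were sought among 9099 others that reached a base mean of 200 in each of the tables. Likeness was the Euclidean distance between the 4 centred log2 group means. For ELN the nearest were ENC1 at 0.16, NME1 at 0.22, FGF2 at 0.28, NEGR1 at 0.33 and PCNA at 0.36. ENC1 had 1354 normalized counts in shFbxo22 senescent, 701 in shFbxo22 young, 295 in shLuc senescent and 648 in shLuc young libraries. PCNA had 3204 normalized counts in shFbxo22 senescent, 1478 in shFbxo22 young, 709 in shLuc senescent and 2190 in shLuc young libraries. Whether cells labelled shFbxo22 senescent had stopped dividing was not tested. LOX had closer neighbours, UXS1 at 0.028, SMAD3 at 0.063, CFL2 at 0.067, CLTB at 0.074 and ITGAE at 0.077. For FBLN5 they were COX10 at 0.032, B4GALT1 at 0.038, MED6 at 0.050, XKR8 at 0.051 and NFS1 at 0.056. With 4 points shared by all genes, such likeness is a description of these groups.

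Some members share exonic sequence with another gene in the GENCODE annotation, and the sources used here do not say that reads were counted by strand. This annotation was a reference and was not taken from the authors' files. LOXL1 overlaps its antisense gene LOXL1-AS1, whose base mean was between 266 and 368. The authors' deposited table has LOXL1-AS1 at a log2 fold change of -0.76 in shLuc senescence (adjusted p = 7.8e-08) and of -0.50 between young hairpins (adjusted p = 0.00362), the same comparisons in which LOXL1 was called lower. LOX overlaps SRFBP1 on the other strand, with a base mean between 238 and 261. LOXL2 overlaps ENTPD4 on the same strand, with a base mean between 1570 and 1712. ELN overlaps ELN-AS1, for which no base mean was found. FBN2 overlaps SLC27A6, whose base mean was at most 3.97. Reads of such partners cannot be told apart here from those of the member.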

How the data were processed

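Total RNA of 12 libraries was sequenced from Ion Total RNA-Seq kit libraries, per the labels' protocols. The submitters' processing notes list STAR 2.3.0, Bowtie2 2.0.0, R 3.2.2 and DESeq2 1.14.1, and builds hg19 and GRCh37; the step each served is not given in the sources used here. Per the file headers, each of 4 tables of 55765 rows holds the authors' base mean, a normalized count signal. The authors deposited a log2 fold change with its standard error, a Wald score, and a p-value with its adjusted p-value. The 28 rows with dates in place of symbols were left out, and a gene whose adjusted p is missing entered no count. The fold changes were moderated towards 0, as the largest standard errors of 0.333 to 0.697 by table show. Those of genes with few reads are understated most. The largest standard error was 0.333 in shFbxo22 senescence and 0.697 in shLuc senescence, so the moderation was not equal. The difference of responses subtracts these fold changes, and the effect of unequal moderation on it was not tested. Depth per library is unknown.

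Fold changes are written senescent over young, or shFbxo22 over shLuc. Of 16 choices of sign, the 1 used let both estimates of a group mean meet within a mean absolute log2 difference of 0.0092 over 9109 genes, and the next choice gave 0.13. It turns 2 tables. The difference of responses is a normal z from the authors' standard errors with Benjamini-Hochberg adjustment over 18598 genes. Sign choice and z test were run on data simulated under their own assumptions, which checks the computation and not how well those assumptions hold here. The genes named are the 10 members, FBXO22, up to 3 called genes per list and comparison with the largest absolute fold change at a base mean of 200 or more, genes behind counts of 5 or fewer, and the 5 nearest genes of ELN, LOX and FBLN5. For lists other than the members some of these values are left out for length. The members and lists were chosen with earlier results of these data known. Alternatives were other adjustments, filters, thresholds and scalings. Python 3.11.15, numpy 2.4.6, pandas 2.3.3 and scipy 1.17.1 were used.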

Additional observations from a re-analysis of the deposited data

Results flagged for a closer look

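For 6 of the 10 genes the senescence response differed between the hairpins by a test of the difference itself (shFbxo22 minus shLuc, log2 scale, normal z test, adjusted p under 0.05). The same test called 37.0% of all 18598 genes and 55.3% of the 3720 whose base mean was 1000 or more, so 6 of 10 is near the share of abundant genes. The differences were 2.35 for ELN, 1.27 for LOXL2, 1.02 for LOX and 0.51 for LOXL1, and -1.30 for FBLN2 and -0.95 for FBLN1. The libraries labelled shFbxo22 senescent, which enter each of these, had a higher FBXO22 transcript than shLuc senescent libraries. The part of this in the differences was not tested. No value per library was analysed here, so single libraries that stand apart could not be sought.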

How the results depend on the processing

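The authors' 4 comparisons were repeated without a low count filter, with a base mean minimum of 200, at a threshold of 0.01 and with fold changes centred on the median. The difference of responses was repeated with the last 3 of these and from the hairpin tables. The filters and the threshold reuse the same fold changes and could not change a direction. Centring shifted fold changes by too little to turn a called gene. The hairpin tables hold the same libraries, and the signs had been chosen so that the tables meet. No direction changed for any of the 10 genes, but these settings could hardly have changed one, so this is no separate check. Across all alternatives 198 of 200 values kept their side of the threshold. The exceptions were in shLuc senescence: EMILIN1 passed when only genes reaching a base mean of 200 were tested (log2 fold change 0.23, adjusted p = 0.0421) and FBN2 at -0.25 did not pass at 0.01. All counts of genes and members called stayed within 1.5 times the values given. Members called ranged between 7 and 9 in shLuc senescence and did not move elsewhere. Centring moved fold changes of the 10 genes by at most 0.018 and their differences of responses by at most 0.025. No paired analysis was possible because no library has a value of its own in the tables, and leaving out each replicate was not run for the same reason. Depth per library is unknown, and fold changes of genes with few reads are understated.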
